A study of Homo sapiens with 15 samples.

Results

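The ADAM and ADAMTS proteases were examined in HT1080 cells, an established human fibrosarcoma line, whose class IIa lysine deacetylases had been altered or inhibited. Members were all rows of the deposited gene table whose name is ADAM or ADAMTS followed by a number and nothing more. This gave 41 of 60675 genes, 22 of them ADAM and 19 ADAMTS. Ribosomal-RNA-depleted RNA was sequenced from 15 samples in 4 groups. Wild-type cells given 1 µM TMP195, an inhibitor of class IIa deacetylases, for 2 days made up 3 samples. KDAC7 (gene HDAC7) carried H709A in 4 samples, KDAC4 (gene HDAC4) carried H803A in 4 samples, and KDAC4 carried H976Y in 4 samples, all of them untreated, and the series title calls their expression endogenous. H709A and H803A are taken here as the inactive forms, and H976Y as the enhanced form, since a tyrosine at that place is known to raise the weak activity of this enzyme class. Untreated wild-type cells were not used here, so every comparison with TMP195 differs in genotype as well as in treatment, and the 2 cannot be told apart. Whether a group's samples are separate cultures or clones is not stated in the labels, so the p-values reflect only how much these samples vary, which may be technical.

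ADAM proteins are membrane-anchored metalloproteases with a prodomain, a metalloprotease domain and a disintegrin domain. The catalytically active ones act as sheddases, which cut the extracellular part of growth factor precursors, Notch ligands and receptors and adhesion molecules off the cell surface. ADAMTS proteins are their secreted relatives, carry thrombospondin type 1 repeats in place of a membrane anchor, and work in the extracellular matrix, where they trim procollagens, cut proteoglycans and shape fibrillin microfibrils. Class IIa deacetylases have little catalytic activity of their own on acetyl-lysine and repress transcription by binding factors such as MEF2 and recruiting corepressor complexes.

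Active members of both families hold a zinc-binding site in which 3 histidines bind the metal and a glutamate takes part in catalysis. The codons of this site are shown because they group the members whose levels are given below. The search read the coding transcripts of GENCODE v29 in frame for codons of histidine, glutamate, any pair, histidine, any pair, glycine or asparagine, any pair and histidine, 11 codons or 33 bases in all. Of 20036 genes with a coding transcript, 65 held it (0.324%), and among the members it was found in 30 of the 39 read. The 9 without it were ADAM2, ADAM7, ADAM11, ADAM18, ADAM22, ADAM23, ADAM29, ADAM32 and ADAMTS8. A miss does not show that a member is inactive, since sites with another amino acid at the eighth codon were not searched. The eighth codon was glycine in 26 members and asparagine in 4, namely ADAMTS1, ADAMTS4, ADAMTS9 and ADAMTS15, which are all known to cut proteoglycans. Not all members classed here as proteoglycanases had asparagine. ADAMTS5 and ADAMTS20 had glycine, and ADAMTS8 had no match. In the sequences of 8 members, written from the first histidine codon to the last, capitals mark the codons that the search fixed, of which the eighth may be glycine or asparagine.
ADAMTS2: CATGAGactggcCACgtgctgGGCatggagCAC
ADAMTS18: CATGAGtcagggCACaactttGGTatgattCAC
ADAMTS9: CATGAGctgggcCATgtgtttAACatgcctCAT
ADAMTS15: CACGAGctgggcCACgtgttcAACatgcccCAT
ADAMTS6: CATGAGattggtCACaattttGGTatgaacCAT
ADAM12: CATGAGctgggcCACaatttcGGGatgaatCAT
ADAM10: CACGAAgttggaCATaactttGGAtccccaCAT
ADAM17: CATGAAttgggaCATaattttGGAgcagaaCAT

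The deposited values were RSEM expected counts per gene. The column labelled as replicate 4 of KDAC4 H803A held gene lengths and not counts, so 14 count libraries were used, 3 of TMP195, 4 of KDAC7 H709A, 3 of KDAC4 H803A and 4 of KDAC4 H976Y. Total counts ran from 6151417 to 24297525, and 1 CPM (a count in 1000000, on TMM-scaled library sizes) stood for 4.86 to 23.9 counts. Of 6 markers of mesenchymal cells, VIM had 2690 to 5636 CPM and S100A4 and THY1 at most 1.13 and 1.75 CPM, while the summed markers of epithelial cells were at 0 to 1.14 CPM, of endothelial cells at 0.38 to 3.64 CPM and of blood cells at 0 to 0.141 CPM, with PTPRC and HBB at 0. Of the neural markers TUBB3 had 40.1 to 197.4 CPM, and the part of these markers in the results was not tested. In bulk RNA, fewer cells of a type and less RNA per cell cannot be told apart.

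Some libraries lay nearer to another group than to their own, which bears on every comparison of KDAC7 H709A and KDAC4 H803A. The library labelled KDAC4 H803A replicate 1 lay nearest to KDAC7 H709A replicate 4, with a median absolute log2 difference of 0.10 over the 17780 genes tested and 0.11 over the 25 members tested. Within its own group its nearest library was at 0.95 and 0.72. KDAC7 H709A replicate 1 lay nearest to KDAC4 H803A replicate 3, at 0.32 over all genes and 0.27 over the members, against 0.71 and 0.77 to the nearest of its own group. KDAC4 H803A replicate 1 and KDAC7 H709A replicates 1 and 4 are called the 3 doubted libraries below. They were kept as labelled, and results for both groups are also given without them. The balance of GC-rich genes (above 55.9% GC) against GC-poor genes (below 42.1%), in log2 CPM, was 0.33, 0.42 and 0.50 in TMP195, 1.10, -0.46, -0.90 and -1.03 in KDAC7 H709A, -1.01, 1.27 and 1.20 in KDAC4 H803A and -0.40, -0.37, -0.48 and -0.26 in KDAC4 H976Y, in replicate order. In KDAC4 H976Y libraries 16.1 to 31.5% of counts lay in mitochondrial ribosomal RNA, and elsewhere at most 0.345%. Small nucleolar RNA held 0.745 to 0.939% there and 0.0297 to 0.143% elsewhere. Every comparison with KDAC4 H976Y thus differs in library make-up as well as in group. Removal of such genes was tried, as given below, but it cannot tell the 2 apart.

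Levels per length were taken as counts divided by the lengths in that misplaced column, scaled to 1000000 over all genes (TPM). They set genes beside each other within a group and not groups beside each other, since all counts enter the total, mitochondrial ribosomal RNA included. ADAM9 averaged 51.7 TPM in TMP195, 104.1 TPM in KDAC7 H709A, 61.6 TPM in KDAC4 H803A and 36.2 TPM in KDAC4 H976Y, and was the highest member in each group. On TMM-scaled CPM, which is used for all comparisons of groups, it averaged 193.9, 256.2, 174.8 and 244.0 CPM, so KDAC4 H976Y lay below TMP195 in TPM and above it in CPM. ADAM10 averaged 29.2, 78.4, 41.4 and 30.1 TPM in the same groups. The highest secreted member was ADAMTS6, with 24.1 TPM in TMP195, 44.1 TPM in KDAC7 H709A, 40.1 TPM in KDAC4 H803A and 10.5 TPM in KDAC4 H976Y. ADAM15 averaged 31.3, 33.9, 27.3 and 13.1 TPM, above ADAM10 in TMP195 and below it elsewhere. ADAM19 and ADAM17 averaged 7.68 to 18.9 TPM. In KDAC7 H709A and KDAC4 H803A the SD of ADAM9 was 53.6 and 73.0 TPM, and neighbours in this order do not differ beyond their spread there. ADAMTS16, ADAM22, ADAM23, ADAM8, ADAMTS7, ADAMTS9 and ADAMTS18 completed the 13 members that averaged at least 1 TPM over the groups. With annotated transcript lengths 18 members did. On those lengths the means over groups were 109.0 TPM for ADAM9, 39.9 TPM for ADAM19, 33.8 TPM for ADAM15, 33.4 TPM for ADAMTS6 and 22.6 TPM for ADAM10, against 63.4, 14.1, 26.4, 29.7 and 44.8 TPM on the deposited ones. ADAM9 came first on both scales, and the order below it depended on the lengths.

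**Figure D1:**
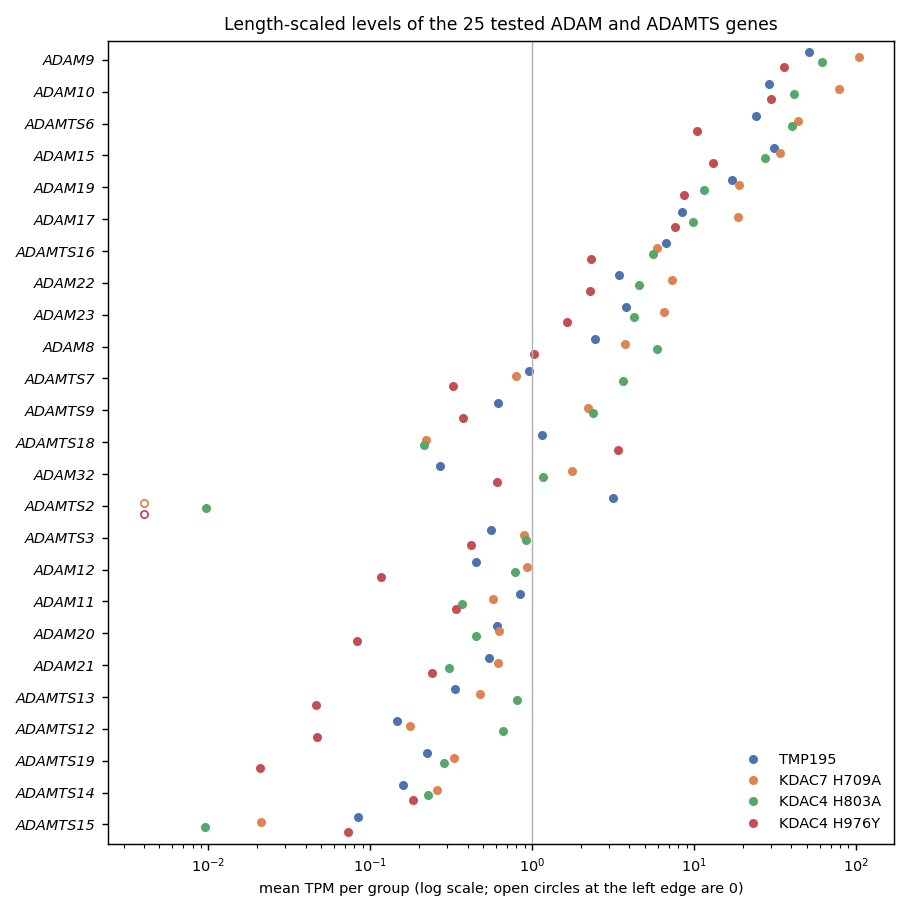
Mean level of each of the 25 tested members in TPM (log scale) in the 4 groups, 1 point a group, with members ordered by their mean and open circles at the left edge for groups at 0. ADAM9 has the highest mean on these lengths in every group, and ADAMTS2 reaches 3.16 TPM in TMP195 while it lies at 0 or 0.00966 TPM in the other groups.

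The filter on low counts kept 25 members, 13 ADAM and 12 ADAMTS. The other 16 had at most 15.8 counts in any library and at most 66.0 over all 14. ADAM2, ADAM5, ADAM6 and ADAMTS8 had 0 counts in every library. ADAM5 and ADAM6 are pseudogenes in humans. Among the 8 members known mainly from testis or epididymis only ADAM20, ADAM21 and ADAM32 were kept, and of the 7 proteoglycanases only ADAMTS9 and ADAMTS15. ADAMTS4 and ADAMTS5, the main aggrecanases of cartilage, had at most 1.24 and 0.201 CPM. ADAMTS4 had 0.0635, 0.183 and 0 CPM in TMP195, 0.193, 0.868, 0.751 and 0.671 CPM in KDAC7 H709A, 0.253, 0.485 and 0.11 CPM in KDAC4 H803A, and 0.282, 0.319, 0.108 and 1.24 CPM in KDAC4 H976Y. TMP195 lay below all of KDAC7 H709A, and the other pairs of groups overlapped. ADAMTS1, an aggrecanase and versicanase, had 0.127, 0 and 0.0669 CPM in TMP195, 0 CPM in all KDAC7 H709A and KDAC4 H803A libraries, and 0.563, 0.213, 0.325 and 0.824 CPM in KDAC4 H976Y. It was detected in every KDAC4 H976Y library and had 13 counts over that group. It was not tested.

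All 14 libraries were fitted together in edgeR's quasi-likelihood model, and members were called at a Benjamini-Hochberg adjusted p under 0.05 over all 17780 genes. In TMP195 against KDAC7 H709A 4 members were called, where 6.29% of all genes were. Of these 2 were higher (1.99% of all genes) and 2 lower (4.31%). In TMP195 against KDAC4 H803A 4 were called (5.34% of all genes), 2 higher (1.56%) and 2 lower (3.78%). TMP195 against KDAC4 H976Y gave 5 calls (16.5% of all genes), 3 higher (7.96%) and 2 lower (8.55%). No member was called in KDAC7 H709A against KDAC4 H803A, where 0.0% of all genes passed with edgeR. In that comparison 2 members and 1118 genes (6.29%) had an unadjusted p under 0.05, and DESeq2 called 0 members and 79 genes. KDAC7 H709A against KDAC4 H976Y gave 7 calls (12.5% of all genes), 5 higher (7.28%) and 2 lower (5.19%). KDAC4 H803A against KDAC4 H976Y gave the most in this fit, 8 calls (15.1% of all genes), 7 higher (9.21%) and 1 lower (5.85%).

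Whether 2 groups overlapped was counted as well. TMP195 did not overlap with KDAC7 H709A in 7 members (24.3% of all genes), with KDAC4 H803A in 11 (24.3%) and with KDAC4 H976Y in 16 (53.8%). KDAC7 H709A did not overlap with KDAC4 H803A in 0 members (2.01% of all genes) and with KDAC4 H976Y in 7 (20.1%), and KDAC4 H803A did not overlap with KDAC4 H976Y in 9 (23.1%).

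Over the 6 comparisons 11 members were called at least once, 8 ADAMTS and 3 ADAM, and 14 never, where 28.5% of all genes were called at least once. Median log2 fold changes of the 25 members and of all genes were -0.21 against -0.07 for TMP195 against KDAC7 H709A, -0.10 against -0.11 for TMP195 against KDAC4 H803A, 0.35 against 0.03 for TMP195 against KDAC4 H976Y, -0.07 against 0.02 for KDAC7 H709A against KDAC4 H803A, 0.12 against 0.09 for KDAC7 H709A against KDAC4 H976Y and 0.10 against 0.09 for KDAC4 H803A against KDAC4 H976Y. Between these medians no test was made. A group was said to be set apart where all 3 of its comparisons were called in 1 direction. TMP195 was set apart by higher ADAMTS2 (0.337% of all genes were set apart so) and by lower ADAM32 (2.32%). KDAC4 H976Y was set apart by higher ADAMTS18 (1.63%) and by lower ADAM20 and ADAMTS19 (3.43%). For KDAC7 H709A and KDAC4 H803A no gene of any kind was set apart. None could be, since 0.0% of all genes were called in the comparison of these groups with each other. Comparisons that share a group share its libraries, so calls of 1 member in several of them are not separate evidence.

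**Figure D2:**
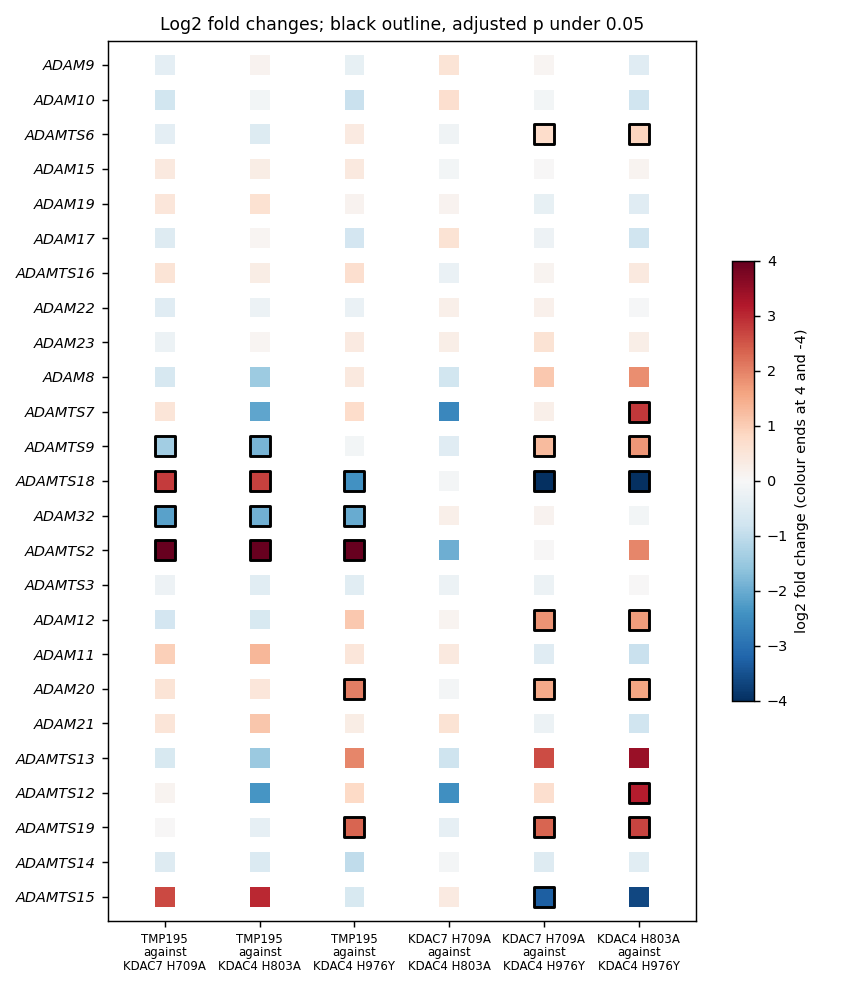
Log2 fold change of each tested member (rows, ordered by level) in the 6 comparisons (columns, first-named group over second), red for higher and blue for lower, with a black outline at an adjusted p under 0.05. ADAMTS18 is outlined in 5 comparisons, ADAMTS9 in 4, and none of the sheddases ADAM8, ADAM9, ADAM10, ADAM15, ADAM17 and ADAM19 in any.

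The procollagen N-proteinases ADAMTS2, ADAMTS3 and ADAMTS14 remove the amino-terminal propeptide of fibrillar procollagens, and ADAMTS3 also takes part in the activation of VEGF-C. Of the 3, ADAMTS2 was called and the others were not. ADAMTS2 (ENSG00000087116, chromosome 5, 179110851 to 179345430 on GRCh38, minus strand) had 9.46, 10.9 and 8.96 CPM in TMP195, 0 CPM in all 4 KDAC7 H709A libraries, 0, 0.0969 and 0 CPM in KDAC4 H803A, and 0 CPM in all 4 KDAC4 H976Y libraries. Its 463 counts thus came from the TMP195 libraries but for 1, and TMP195 overlapped with no other group. A group at 0 allows up to 0.0486 CPM in KDAC7 H709A and 0.0981 CPM in KDAC4 H976Y, taking 3 counts over the group. ADAMTS2 was at least 201.9-fold higher in TMP195 than in KDAC7 H709A (adjusted p = 0.000565 by edgeR) and at least 100.1-fold higher than in KDAC4 H976Y (adjusted p = 0.000692). Against KDAC4 H803A the ratio was 345.7 (adjusted p = 0.00191), and counting error alone put it between 61.7 and 13680 at 95%. The calls held without the 3 doubted libraries (adjusted p = 8.91e-06 against KDAC7 H709A, 1.65e-06 against KDAC4 H976Y and 1.45e-05 against KDAC4 H803A). Over the alternatives tried the adjusted p ran from 2.28e-15 to 0.142, from 1.7e-12 to 0.103 and from 9.41e-09 to 0.723 in the same comparisons, and each call was lost in 1 of them, in which the length column was read as counts. Intervals and bounds of this kind cover counting error only.

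The nearest tested coding genes on either side of ADAMTS2 were read in all 4 groups. RUFY1 averaged 26.2 CPM in TMP195, 32.4 CPM in KDAC7 H709A, 37.1 CPM in KDAC4 H803A and 28.5 CPM in KDAC4 H976Y, and was called in none of the 6 comparisons. ZNF354C, on the other side, averaged 4.50, 9.52, 8.72 and 0.253 CPM in the same groups, and TMP195 exceeded KDAC4 H976Y (log2 fold change 4.20, adjusted p = 0.000393 by edgeR). KDAC7 H709A (5.29, adjusted p = 9.42e-05) and KDAC4 H803A (5.16, adjusted p = 0.000148) exceeded KDAC4 H976Y as well. HNRNPH1, beyond RUFY1, was lower in TMP195 than in KDAC7 H709A (-0.6, adjusted p = 0.0343) and KDAC4 H803A (-0.67, adjusted p = 0.0292). HNRNPH1 was also lower in KDAC4 H976Y than in those groups (adjusted p = 0.00705 and 0.00652). ZNF354A was lower in TMP195 than in KDAC4 H976Y (-0.81, adjusted p = 0.049), and ZNF354B and CANX were called in none. No annotated gene overlapped ADAMTS2. ADAMTS3 averaged 4.81 ± 0.707 CPM in TMP195, 5.54 ± 2.82 in KDAC7 H709A, 6.52 ± 3.16 in KDAC4 H803A and 6.48 ± 1.41 in KDAC4 H976Y (SD, n = 3, 4, 3 and 4), and ADAMTS14 averaged 1.384, 2.02, 2.10 and 2.86 CPM. Neither passed the test in any comparison.

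ADAMTS18 and ADAMTS19 are secreted members whose substrates are less well known, as is ADAMTS16. ADAMTS18 (ENSG00000140873, chromosome 16, 77247813 to 77435114, minus strand) had 11.3, 11.5 and 10.97 CPM in TMP195, 1.54, 0.694, 1.06 and 2.98 CPM in KDAC7 H709A, 3.04, 0.678 and 1.21 CPM in KDAC4 H803A, and 55.6, 58.1, 64.3 and 60.8 CPM in KDAC4 H976Y. Its levels fell into 3 tiers that did not overlap: KDAC4 H976Y on top, TMP195 below, and KDAC7 H709A and KDAC4 H803A together at the bottom. It was higher in TMP195 than in KDAC7 H709A (log2 fold change 2.79 ± 0.45 SE, adjusted p = 0.0021 by edgeR) and than in KDAC4 H803A (2.72 ± 0.50, adjusted p = 0.00593), and lower in TMP195 than in KDAC4 H976Y (-2.41 ± 0.45, adjusted p = 0.00366). It was lower in KDAC7 H709A than in KDAC4 H976Y (-5.20 ± 0.47, adjusted p = 2.57e-05) and lower in KDAC4 H803A than in KDAC4 H976Y (-5.13 ± 0.54, adjusted p = 9.48e-05). KDAC7 H709A against KDAC4 H803A gave -0.07 ± 0.47 (adjusted p = 0.947). Each of the 5 calls held when any library was left out, and without the 3 doubted ones the differences of KDAC7 H709A and KDAC4 H803A from KDAC4 H976Y were -6.03 and -6.00.

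The nearest 3 tested coding genes on either side of ADAMTS18 differed in their order of groups. Coding genes that did not pass the filter on low counts were skipped, so these need not be the closest genes. KARS averaged 210.7 CPM in TMP195, 181.5 CPM in KDAC7 H709A, 153.3 CPM in KDAC4 H803A and 244.3 CPM in KDAC4 H976Y, and TERF2IP averaged 31.0, 47.9, 45.5 and 52.4 CPM. Both were highest in KDAC4 H976Y, like ADAMTS18, and neither was called in any comparison. MON1B averaged 63.2, 71.9, 57.2 and 40.2 CPM in the same groups, NUDT7 0.663, 1.40, 0.687 and 0.652 CPM, VAT1L 5.86, 12.4, 6.97 and 2.45 CPM, and WWOX 4.75, 5.00, 6.40 and 4.07 CPM. These 4 were lowest in KDAC4 H976Y. In TMP195 against KDAC4 H976Y, MON1B was called (log2 fold change 0.65, adjusted p = 0.0239 by edgeR). KDAC7 H709A against KDAC4 H976Y gave calls for MON1B (0.84, adjusted p = 0.00525) and VAT1L (2.33, adjusted p = 0.0081). The direction of these calls was opposite to that of ADAMTS18 in the same comparisons. NUDT7 and WWOX were called in none. The antisense gene RP11-538I12.3, inside ADAMTS18 on the opposite strand, reached 3.98 CPM in any library, with means of 0.45, 1.80, 0.919 and 0.445 CPM in the same order. The strand setting of the counting is not given in the sources used here, so reads of a gene and its antisense partner cannot be told apart.

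ADAMTS19 (ENSG00000145808, chromosome 5, 129460265 to 129738683, plus strand) had 0.572, 1.34 and 1.00 CPM in TMP195, 0.965, 1.39, 0.939 and 0.629 CPM in KDAC7 H709A, 0.633, 1.74 and 1.43 CPM in KDAC4 H803A, and 0.141, 0.426, 0.108 and 0 CPM in KDAC4 H976Y. All libraries of the first 3 groups lay above all of KDAC4 H976Y, which had 6 counts in total. It was higher than in KDAC4 H976Y in TMP195 (log2 fold change 2.32 ± 0.69, adjusted p = 0.0359 by edgeR), in KDAC7 H709A (2.32 ± 0.66, adjusted p = 0.0363) and in KDAC4 H803A (2.69 ± 0.69, adjusted p = 0.0218). These calls rest on few counts. That for TMP195 was lost without any of the TMP195 libraries or KDAC4 H976Y replicate 1, 3 or 4 (adjusted p = 0.0551 to 0.133). That for KDAC7 H709A was lost without its replicate 2 or 3, TMP195 replicate 2 or 3 or KDAC4 H976Y replicate 1, 3 or 4 (0.0528 to 0.113), and that for KDAC4 H803A without its replicate 2 or 3 or KDAC4 H976Y replicate 1 or 3 (0.0654 to 0.0853). Over the alternatives tried the adjusted p ran from 0.00829 to 0.284, from 0.012 to 0.337 and from 0.00149 to 0.0853. ADAMTS16 averaged 35.0, 23.9, 28.6 and 22.0 CPM in the 4 groups and was called in none of the comparisons.

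**Figure D3:**
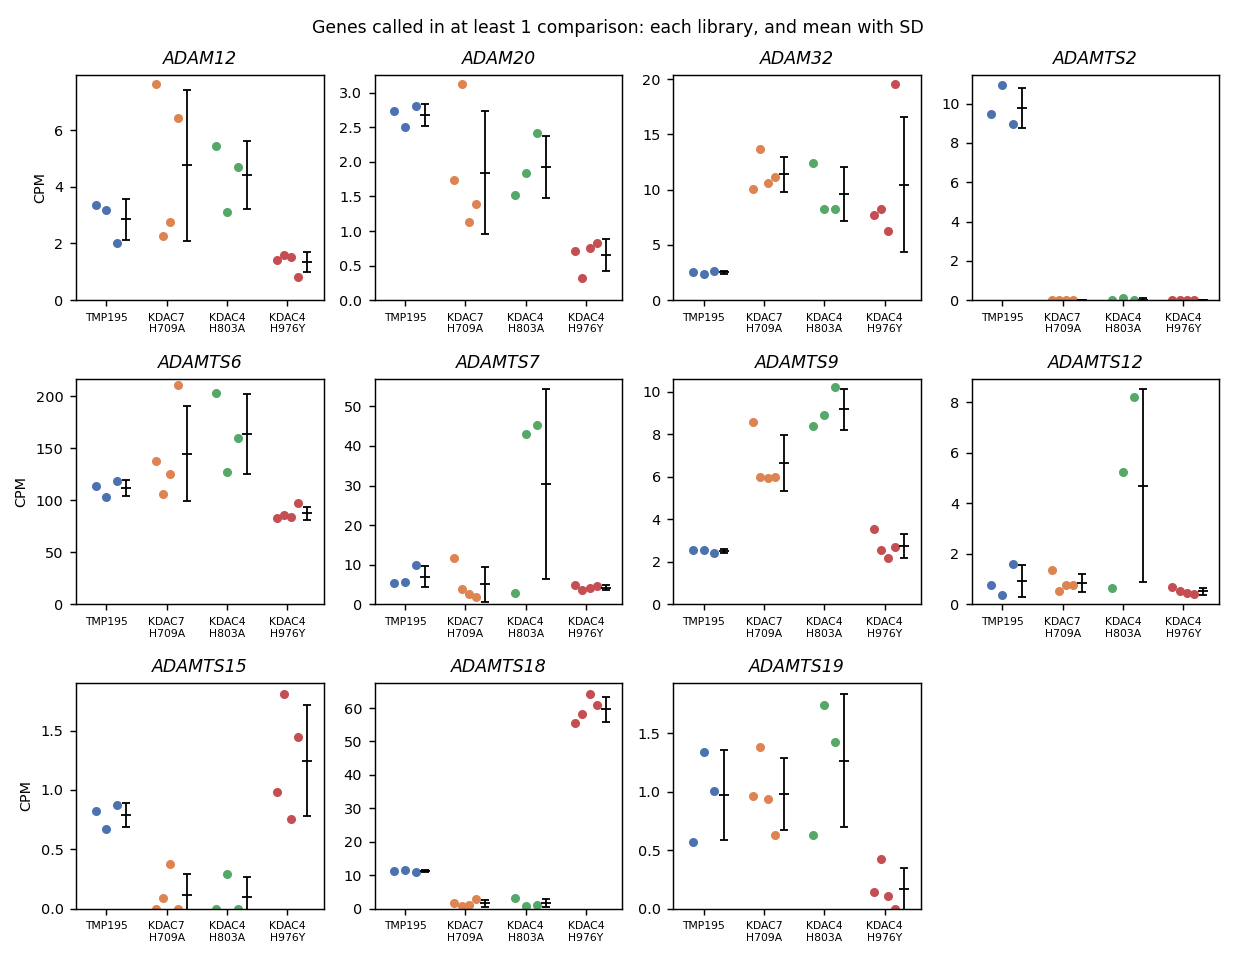
Level in CPM of the 11 members called in at least 1 comparison, 1 panel a gene with its own axis from 0, 1 point a library in replicate order and the group mean with its SD beside the points. ADAMTS2 is seen in TMP195 at 8.96 to 10.9 CPM, ADAMTS18 has its highest points at 55.6 to 64.3 CPM in KDAC4 H976Y, and ADAMTS7 and ADAMTS12 are high in 2 of the 3 KDAC4 H803A libraries.

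ADAMTS2 and ADAMTS18 were both called higher in TMP195 than in KDAC7 H709A and in KDAC4 H803A, and the 250 bases before their RefSeq starts (GRCh38.p14, both on the minus strand, written in the direction of transcription) are shown for that reason. Capitals mark GC boxes, searched as GGGCGG on both strands.
ADAMTS2, chr5:179345462-179345711: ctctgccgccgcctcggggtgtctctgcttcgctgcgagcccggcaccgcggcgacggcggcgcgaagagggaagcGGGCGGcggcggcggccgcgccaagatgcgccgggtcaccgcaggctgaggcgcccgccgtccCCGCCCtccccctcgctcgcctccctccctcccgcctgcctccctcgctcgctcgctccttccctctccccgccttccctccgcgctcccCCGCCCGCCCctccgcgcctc
ADAMTS18, chr16:77435035-77435284: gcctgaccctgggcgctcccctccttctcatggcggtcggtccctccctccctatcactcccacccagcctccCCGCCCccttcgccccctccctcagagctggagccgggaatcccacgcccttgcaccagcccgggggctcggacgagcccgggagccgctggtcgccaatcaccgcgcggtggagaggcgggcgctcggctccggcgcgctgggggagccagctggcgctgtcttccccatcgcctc
The 2 windows held 80.0% and 74.4% GC, 40 and 24 CpG dinucleotides and 4 and 1 GC boxes, some of them overlapping in ADAMTS2. Over the 24 members with a promoter in the table, the median GC content was 71.4% and the median number of CpG dinucleotides 23, against 58.0% and 11 over 27305 genes. GC boxes were found in 18 of the 24, and in 42.3% of all genes. A TATA box (TATAAA) was found in 1 member, ADAMTS10, and in 11.1% of all genes, and an AP-1 site (TGANTCA) in ADAMTS12 and in 6.6%. The E box CACGTG was found in ADAM10, ADAM30, ADAMTS6 and ADAMTS17 and in 6.49% of all genes. A MEF2 site, the element of the factors that class IIa deacetylases bind, was found in ADAM20 and in 2.9% of all genes, and no CArG box was found in a member, against 1.14% of all genes. These matches describe letters in this window only.

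Among the proteoglycanases, which cut versican and aggrecan, ADAMTS9 was called in 4 comparisons. ADAMTS9 (ENSG00000163638, chromosome 3, 64515654 to 64688000, minus strand) had 2.54, 2.56 and 2.41 CPM in TMP195, 8.59, 5.99, 5.95 and 6.00 CPM in KDAC7 H709A, 8.36, 8.91 and 10.2 CPM in KDAC4 H803A, and 3.52, 2.55, 2.17 and 2.68 CPM in KDAC4 H976Y. Every KDAC7 H709A and KDAC4 H803A library lay above every library of TMP195 and KDAC4 H976Y. It was lower in TMP195 than in KDAC7 H709A (log2 fold change -1.40 ± 0.26, adjusted p = 0.00544 by edgeR) and than in KDAC4 H803A (-1.87 ± 0.27, adjusted p = 0.000998), and higher in KDAC7 H709A (1.28 ± 0.24, adjusted p = 0.00369) and in KDAC4 H803A (1.75 ± 0.25, adjusted p = 0.000993) than in KDAC4 H976Y. TMP195 against KDAC4 H976Y gave -0.12 ± 0.26 (adjusted p = 0.77). No call was lost when 1 library was left out, and without the 3 doubted libraries the 4 log2 fold changes were -1.26, -1.92, 1.14 and 1.80. Its antisense genes ADAMTS9-AS1 and ADAMTS9-AS2 reached at most 0.713 and 0.581 CPM.

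ADAMTS15 (ENSG00000166106, chromosome 11), which shares the asparagine form of the site with ADAMTS9, showed another pattern. It had 0.826, 0.672 and 0.869 CPM in TMP195, 0, 0.0868, 0.376 and 0 CPM in KDAC7 H709A, 0, 0.291 and 0 CPM in KDAC4 H803A, and 0.985, 1.81, 0.758 and 1.44 CPM in KDAC4 H976Y. TMP195 and KDAC4 H976Y overlapped and lay above all libraries of the other 2 groups. KDAC7 H709A had 7 counts and KDAC4 H976Y 38, and the level was lower in KDAC7 H709A by edgeR (log2 fold change -3.3 ± 0.99, adjusted p = 0.0448). That call was lost without any of the TMP195 or KDAC4 H976Y libraries or KDAC7 H709A replicate 1, 2 or 4 (adjusted p = 0.0554 to 0.124; 0.00557 to 0.45 over the alternatives tried). KDAC4 H803A, with 3 counts, against KDAC4 H976Y gave an adjusted p of 0.0541.

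ADAMTS6, which binds fibrillin microfibrils like its close relative ADAMTS10, was the most abundant ADAMTS. It (ENSG00000049192, chromosome 5, 65148736 to 65481920, minus strand) had 113.6, 103.3 and 118.2 CPM in TMP195, 137.6, 105.7, 125.6 and 210.4 CPM in KDAC7 H709A, 203.4, 126.9 and 159.8 CPM in KDAC4 H803A, and 83.3, 85.4, 84.3 and 97.0 CPM in KDAC4 H976Y. All KDAC4 H976Y libraries lay below all others. It was higher in KDAC7 H709A (log2 fold change 0.73 ± 0.21, adjusted p = 0.0398 by edgeR) and in KDAC4 H803A (0.90 ± 0.23, adjusted p = 0.0197) than in KDAC4 H976Y. The 2 near-identical libraries, KDAC7 H709A replicate 4 and KDAC4 H803A replicate 1, were the highest of their groups, and without the 3 doubted libraries the log2 fold changes were 0.41 (adjusted p = 0.0288) and 0.70 (adjusted p = 0.000332). The first call was lost without KDAC7 H709A replicate 4, KDAC4 H803A replicate 3 or any TMP195 or KDAC4 H976Y library (adjusted p = 0.0538 to 0.119), the second without KDAC4 H803A replicate 3 or KDAC4 H976Y replicate 1, 2 or 3 (0.0638 to 0.0687). Over the alternatives tried the adjusted p ran from 0.00907 to 0.537 and from 1.29e-05 to 0.396. TMP195 against KDAC4 H976Y gave 0.35 ± 0.23 (adjusted p = 0.294).

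ADAMTS7 and ADAMTS12 both cut cartilage oligomeric matrix protein, and both were called in KDAC4 H803A against KDAC4 H976Y alone. ADAMTS7 (ENSG00000136378, chromosome 15) had 5.46, 5.62 and 9.96 CPM in TMP195, 11.6, 3.91, 2.63 and 1.97 CPM in KDAC7 H709A, 2.85, 42.9 and 45.4 CPM in KDAC4 H803A, and 4.79, 3.62, 4.01 and 4.53 CPM in KDAC4 H976Y. ADAMTS12 (ENSG00000151388, chromosome 5) had 0.762, 0.366 and 1.61 CPM in TMP195, 1.35, 0.521, 0.751 and 0.755 CPM in KDAC7 H709A, 0.633, 5.23 and 8.22 CPM in KDAC4 H803A, and 0.704, 0.532, 0.433 and 0.412 CPM in KDAC4 H976Y. For both, KDAC4 H803A replicates 2 and 3 were high and replicate 1 was not, so the groups overlap. Log2 fold changes were 2.84 ± 0.75 for ADAMTS7 (adjusted p = 0.0248 by edgeR) and 3.13 ± 0.74 for ADAMTS12 (adjusted p = 0.0152). The first was lost without KDAC4 H803A replicate 2 or 3 or KDAC4 H976Y replicate 1, 2 or 3 (adjusted p = 0.0624 to 0.0969), the second without replicate 3 of either group (0.0521 and 0.0823). Over the alternatives tried adjusted p ran to 0.126 and 0.0823. Without the 3 doubted libraries the log2 fold changes were 3.38 (adjusted p = 1.18e-07) and 3.64 (adjusted p = 2.49e-05). That setting drops KDAC4 H803A replicate 1, the low library of its group. The KDAC4 H803A libraries left had GC balances of 1.27 and 1.20, against -0.48 to -0.26 in KDAC4 H976Y. Group and GC balance cannot be told apart there. ADAMTS7 overlaps MORF4L1, on the opposite strand, which averaged 97.7, 164.7, 121.8 and 151.4 CPM in the 4 groups. ADAMTS13, which cuts von Willebrand factor, had 10.6 CPM in KDAC7 H709A replicate 1, 6.01 and 9.98 CPM in KDAC4 H803A replicates 2 and 3, and at most 2.61 CPM in any other library. It was called in none of the comparisons, with 3.45 ± 1.20 and an adjusted p of 0.0681 in KDAC4 H803A against KDAC4 H976Y.

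The sheddases held the most abundant members, and ADAM12 was their only member called. ADAM10 is the main sheddase of Notch receptors, and ADAM17 releases TNF and ligands of the EGF receptor. ADAM10 (ENSG00000137845, chromosome 15) had 106.2, 100.9 and 80.3 CPM in TMP195, 59.9, 171.5, 219.1 and 209.4 CPM in KDAC7 H709A, 209.0, 56.9 and 41.8 CPM in KDAC4 H803A, and 179.1, 192.1, 207.5 and 134.3 CPM in KDAC4 H976Y. ADAM17 (ENSG00000151694, chromosome 2) had 52.5, 52.8 and 50.5 CPM in TMP195, 32.0, 83.7, 94.1 and 85.1 CPM in KDAC7 H709A, 82.3, 36.0 and 29.1 CPM in KDAC4 H803A, and 83.8, 91.7, 94.4 and 71.3 CPM in KDAC4 H976Y. In both, KDAC7 H709A replicate 1 and KDAC4 H803A replicates 2 and 3 were the low libraries, so the spread within those groups exceeded the differences between groups. TMP195 lay below KDAC4 H976Y without overlap, by -0.90 ± 0.51 for ADAM10 (adjusted p = 0.237 by edgeR) and -0.72 ± 0.37 for ADAM17 (adjusted p = 0.198), and neither passed.

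ADAM9 followed the same libraries, with 192.4, 203.1 and 186.2 CPM in TMP195, 125.1, 241.0, 299.0 and 359.6 CPM in KDAC7 H709A, 353.0, 93.6 and 77.7 CPM in KDAC4 H803A, and 243.8, 264.2, 297.3 and 170.5 CPM in KDAC4 H976Y. ADAM8, a sheddase known from leukocytes, ran the other way, with 5.59, 7.999 and 12.9 CPM in TMP195, 45.65, 5.03, 3.69 and 2.47 CPM in KDAC7 H709A, 2.79, 31.6 and 38.5 CPM in KDAC4 H803A, and 5.49, 6.49, 4.01 and 11.1 CPM in KDAC4 H976Y. The 3 libraries richest in GC-rich genes were thus lowest in ADAM9, ADAM10 and ADAM17, whose transcripts hold 39.4%, 38.3% and 38.5% GC, and highest in ADAM8, ADAMTS7 and ADAMTS13, whose transcripts hold 63.8%, 65.7% and 64.1%. Not all members of like GC content followed. ADAM15 (63.9% GC) had 74.9, 89.0 and 74.2 CPM there, below TMP195, and ADAM32 (34.6%) had 10.0, 8.24 and 8.22 CPM, above TMP195. Over the 25 tested members, deviation and GC content correlated at 0.47, 0.49 and 0.40 in these libraries. The correlation was larger in size, and negative, in KDAC7 H709A replicates 3 and 4 (-0.61 and -0.81) and KDAC4 H803A replicate 1 (-0.80). It was -0.45 in KDAC7 H709A replicate 2, 0.28, 0.30 and 0.50 in TMP195, and -0.22 to -0.03 in KDAC4 H976Y. The part of GC content in single members was not tested. With trends on GC content and length removed per library, KDAC4 H803A against KDAC4 H976Y gave an adjusted p of 0.0264 for ADAM17 and 0.0677 for ADAM10, against 0.156 and 0.28 without.

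**Figure D4:**
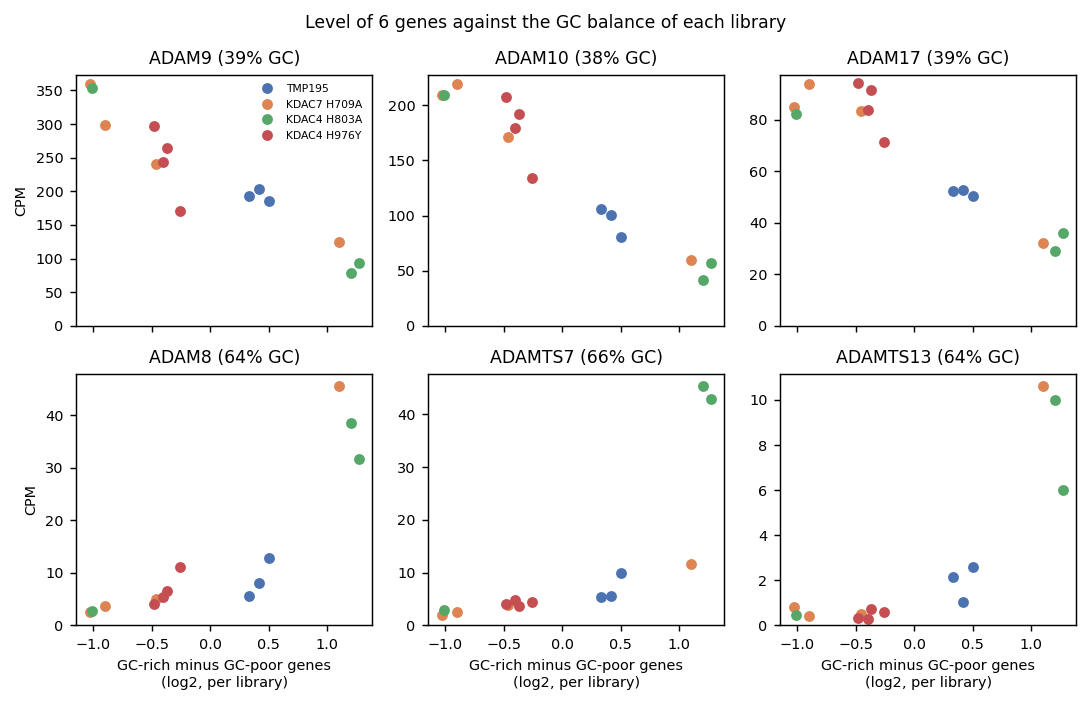
Level in CPM of 3 GC-poor members (upper row) and 3 GC-rich members (lower row) against the log2 balance of GC-rich over GC-poor genes in the same library, 1 point a library, coloured by group. KDAC7 H709A replicate 1 and KDAC4 H803A replicates 2 and 3, at a balance of 1.10 to 1.27, lie lowest in the upper row and highest in the lower row. Members of like GC content that did not follow this order, such as ADAM15 and ADAM32, are not shown.

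ADAM15 and ADAM19 varied less. ADAM15 had 97.6, 105.3 and 90.7 CPM in TMP195, 74.9, 77.6, 74.3 and 70.0 CPM in KDAC7 H709A, 75.6, 89.0 and 74.2 CPM in KDAC4 H803A, and 71.4, 84.1, 81.2 and 60.8 CPM in KDAC4 H976Y. TMP195 lay above every other library, with log2 fold changes of 0.40 ± 0.15, 0.30 ± 0.17 and 0.40 ± 0.16 against KDAC7 H709A, KDAC4 H803A and KDAC4 H976Y, none of which passed (adjusted p = 0.146, 0.376 and 0.0962 by edgeR). ADAM19, known to cut neuregulin, had 167.6, 181.4 and 162.2 CPM in TMP195, 87.6, 172.7, 146.7 and 84.5 CPM in KDAC7 H709A, 86.5, 135.8 and 110.3 CPM in KDAC4 H803A, and 163.3, 148.9, 154.2 and 152.0 CPM in KDAC4 H976Y. It averaged 170.4 ± 9.89 CPM in TMP195, 122.9 ± 43.8 in KDAC7 H709A, 110.9 ± 24.7 in KDAC4 H803A and 154.6 ± 6.19 in KDAC4 H976Y (SD), and passed in none of the comparisons.

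ADAM12, a sheddase that cuts HB-EGF and binding proteins of insulin-like growth factors, was low in KDAC4 H976Y. It (ENSG00000148848, chromosome 10, 126012381 to 126388455, minus strand) had 3.37, 3.17 and 2.01 CPM in TMP195, 7.62, 2.26, 2.75 and 6.41 CPM in KDAC7 H709A, 5.45, 3.10 and 4.71 CPM in KDAC4 H803A, and 1.41, 1.596, 1.52 and 0.824 CPM in KDAC4 H976Y. Every KDAC4 H976Y library lay below every other library. It was higher in KDAC7 H709A (log2 fold change 1.80 ± 0.43, adjusted p = 0.0162 by edgeR) and in KDAC4 H803A (1.70 ± 0.46, adjusted p = 0.0262) than in KDAC4 H976Y, and TMP195 gave 1.07 ± 0.46 (adjusted p = 0.123). KDAC7 H709A replicates 1 and 4 were the high libraries of their group. Without the 3 doubted libraries the first difference was 0.86 (adjusted p = 0.0844; 0.00178 to 0.225 over the alternatives tried) and the second 1.47 (adjusted p = 0.00242). The second was lost without KDAC4 H803A replicate 3 or any KDAC4 H976Y library (0.0505 to 0.0793).

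Of the members known from testis or epididymis, ADAM32 and ADAM20 were called, and ADAM21 was not. ADAM32 (ENSG00000197140, 39106990 to 39284911 on chromosome 8, plus strand), whose coding transcripts held no match to the zinc site, had 2.54, 2.38 and 2.67 CPM in TMP195, 10.0, 13.7, 10.6 and 11.1 CPM in KDAC7 H709A, 12.4, 8.24 and 8.22 CPM in KDAC4 H803A, and 7.74, 8.30, 6.28 and 19.6 CPM in KDAC4 H976Y. All TMP195 libraries lay below all others. It was lower in TMP195 than in KDAC7 H709A (log2 fold change -2.16 ± 0.37, adjusted p = 0.00345 by edgeR), in KDAC4 H803A (-1.93 ± 0.39, adjusted p = 0.00989) and in KDAC4 H976Y (-2.03 ± 0.37, adjusted p = 0.00308). The transcripts of ADAM32 hold 34.6% GC, and TMP195 had a GC balance of 0.33 to 0.50. KDAC7 H709A replicate 1 and KDAC4 H803A replicates 2 and 3 had higher balances (1.10, 1.27 and 1.20). Their ADAM32 levels, 10.0, 8.24 and 8.22 CPM, lay above those of TMP195. The part of GC content alone was not tested. With GC and length trends removed the 3 differences were -1.42 (adjusted p = 0.0659), -1.73 (0.0347) and -1.36 (0.0393), and over the alternatives tried the adjusted p ran to 0.183, 0.0829 and 0.141. The call against KDAC4 H803A was lost without TMP195 replicate 1 or 2 (adjusted p = 0.053 and 0.0584). ADAM9, its neighbour on the chromosome, was not called.

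ADAM20 (ENSG00000134007, chromosome 14, 70522358 to 70535015, minus strand) had 2.73, 2.50 and 2.81 CPM in TMP195, 1.74, 3.12, 1.13 and 1.384 CPM in KDAC7 H709A, 1.52, 1.84 and 2.41 CPM in KDAC4 H803A, and 0.704, 0.319, 0.758 and 0.824 CPM in KDAC4 H976Y. Again every KDAC4 H976Y library lay below every other library. It was higher than in KDAC4 H976Y in TMP195 (log2 fold change 2.05 ± 0.45, adjusted p = 0.00805 by edgeR), in KDAC7 H709A (1.5 ± 0.43, adjusted p = 0.0347) and in KDAC4 H803A (1.57 ± 0.45, adjusted p = 0.0343). The first held when any library was left out. The second was lost without KDAC7 H709A replicate 2, any TMP195 library or KDAC4 H976Y replicate 1, 2 or 3 (adjusted p = 0.0544 to 0.111; 0.0153 to 0.454 over the alternatives tried), and the third without KDAC4 H803A replicate 2 or 3, any TMP195 library or KDAC4 H976Y replicate 1, 2 or 3 (0.0538 to 0.128; 0.00206 to 0.128). RSEM shares reads between near-identical genes, and the pseudogene ADAM20P1 had 2.398 CPM in TMP195, 2.45 CPM in KDAC7 H709A, 2.14 CPM in KDAC4 H803A and 0.552 CPM in KDAC4 H976Y. Its level was thus lowest in the same group as that of ADAM20, and values of the pair are uncertain. ADAM21 averaged 2.26, 1.55, 1.02 and 1.80 CPM and passed in none of the comparisons.

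ADAM22, ADAM23 and ADAM11 lack the catalytic site and are known in neurons, where ADAM22 and ADAM23 bind LGI proteins at synapses. ADAM22 averaged 15.4, 21.3, 17.9 and 18.6 CPM in TMP195, KDAC7 H709A, KDAC4 H803A and KDAC4 H976Y, and ADAM23 averaged 24.9, 28.9, 23.7 and 19.5 CPM. ADAM11 averaged 6.12 ± 0.735 CPM in TMP195, 3.16 ± 1.51 in KDAC7 H709A, 2.397 ± 0.937 in KDAC4 H803A and 4.43 ± 0.279 in KDAC4 H976Y. Its TMP195 libraries lay above all others, and the largest of its differences, 1.34 ± 0.42 against KDAC4 H803A, had an adjusted p of 0.0864 by edgeR. None of the 3 was called.

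Leaving out the 3 doubted libraries changed the count in every comparison, and without them 26 members passed the filter. Calls then numbered 13 in TMP195 against KDAC7 H709A (45.7% of all genes), 18 in TMP195 against KDAC4 H803A (47.9%) and 15 in TMP195 against KDAC4 H976Y (53.9%). They numbered 14 in KDAC7 H709A against KDAC4 H803A (60.2%), 10 in KDAC7 H709A against KDAC4 H976Y (31.8%) and 18 in KDAC4 H803A against KDAC4 H976Y (64.5%). In KDAC7 H709A against KDAC4 H803A, with none called in all libraries, replicates 2 and 3 of each group then differed in ADAM10 (2.00, adjusted p = 9.21e-06), ADAM17 (1.46, adjusted p = 7.62e-06), ADAM9 (1.67, adjusted p = 2.92e-05), ADAMTS7 (-3.76, adjusted p = 8e-07) and ADAMTS13 (-4.02, adjusted p = 2.97e-05), all by edgeR. These 4 libraries stood at GC balances of -0.46 and -0.90 in KDAC7 H709A and 1.27 and 1.20 in KDAC4 H803A, so group and GC balance cannot be told apart there. With GC and length trends removed as well, 13 members were called, where 48.2% of all genes were.

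Proteins that control these proteases were read from lists of known inhibitors, partners, relatives and substrates. Their counts stand beside shares of all genes called higher and lower of 1.99% and 4.31% in TMP195 against KDAC7 H709A, 1.56% and 3.78% in TMP195 against KDAC4 H803A, 7.96% and 8.55% in TMP195 against KDAC4 H976Y, 7.28% and 5.19% in KDAC7 H709A against KDAC4 H976Y, and 9.21% and 5.85% in KDAC4 H803A against KDAC4 H976Y. Few genes a list were tested, and no list was tested as a whole. Of 4 tested inhibitors (of 6), TIMP3, the inhibitor of ADAM17 and of several ADAMTS, was called higher and TIMP1 lower in KDAC4 H803A against KDAC4 H976Y. TIMP3 had 15.8, 14.5 and 13.6 CPM in TMP195, 0, 6.86, 4.63 and 0.168 CPM in KDAC7 H709A, 0.19, 10.1 and 9.21 CPM in KDAC4 H803A, and 0 CPM in all 4 KDAC4 H976Y libraries. It was at least 149.3-fold higher in TMP195 (adjusted p = 0.0188 by edgeR) and at least 55.3-fold higher in KDAC4 H803A (adjusted p = 0.0384) than in KDAC4 H976Y, and the 3 doubted libraries were the low ones of their groups. TIMP1 averaged 47.4 ± 22.2 CPM in KDAC4 H803A and 91.0 ± 17.9 CPM in KDAC4 H976Y, a log2 difference of -0.94 ± 0.28 (adjusted p = 0.0416). RECK, an inhibitor of ADAM10, was not called (0.74 ± 0.42, adjusted p = 0.223).

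Of 11 tested partners (of 13), PCSK5, a convertase that removes prodomains, and TSPAN14, a tetraspanin that carries ADAM10 to the surface, were the 2 called in KDAC4 H803A against KDAC4 H976Y. TSPAN14 averaged 113.8 ± 3.56 CPM in TMP195, 155.8 ± 37.95 in KDAC7 H709A, 152.1 ± 37.4 in KDAC4 H803A and 61.7 ± 4.00 in KDAC4 H976Y. It was higher than in KDAC4 H976Y in TMP195 (0.88 ± 0.21, adjusted p = 0.0126 by edgeR), KDAC7 H709A (1.34 ± 0.20, adjusted p = 0.000969) and KDAC4 H803A (1.3 ± 0.21, adjusted p = 0.00178). PCSK5 was higher in KDAC7 H709A (1.13 ± 0.26, adjusted p = 0.0134) and KDAC4 H803A (1.12 ± 0.28, adjusted p = 0.0195), while FURIN gave -0.52 ± 0.17 (adjusted p = 0.0589) and RHBDF2, the iRhom that matures ADAM17, 0.98 ± 0.38 (adjusted p = 0.0931) in the last comparison. TSPAN10 was lower in TMP195 than in KDAC4 H976Y, the only partner so called. Of 5 tested ADAMTS-like genes (of 7 in the table), which share the thrombospondin repeats without a protease domain, ADAMTSL3 was lower in TMP195 than in each other group. ADAMTSL3 averaged 1.70 ± 0.55 CPM in TMP195, 46.8 ± 20.7 in KDAC7 H709A, 56.1 ± 23.1 in KDAC4 H803A and 31.95 ± 17.25 in KDAC4 H976Y (log2 fold changes -4.78 ± 0.54, -5.04 ± 0.55 and -4.22 ± 0.52, adjusted p = 0.000117, 0.000105 and 0.000215). PAPLN, ADAMTSL5 and ADAMTSL4 were called in none, and THSD4 in KDAC7 H709A exceeded its KDAC4 H976Y level (0.86 ± 0.25, adjusted p = 0.0403).

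Known substrates of ADAM proteases gave 24 tested genes of 30. In KDAC4 H803A against KDAC4 H976Y 3 were higher (EPHA2, NOTCH1, DLL1; 9.21% of all genes) and 4 lower (JAG1, SDC1, NOTCH2, TGFA; 5.85%), with a median log2 fold change of 0.0 over the list and 0.09 over all genes. KDAC7 H709A against KDAC4 H976Y gave 2 higher (EPHA2, DLL1) and 2 lower (JAG1, TGFA). TMP195 against KDAC4 H976Y gave 3 higher (TNFRSF1A, EPHA2, DLL1) and none lower, and TMP195 against KDAC7 H709A and against KDAC4 H803A gave JAG1 alone, higher. The Notch ligand DLL1 averaged 2.19 ± 0.257 CPM in TMP195, 5.66 ± 3.21 in KDAC7 H709A, 4.65 ± 0.279 in KDAC4 H803A and 0.30 ± 0.197 in KDAC4 H976Y, and its fellow ligand JAG1 176.9 ± 10.3, 91.4 ± 12.5, 104.4 ± 10.3 and 252.2 ± 36.05 CPM. DLL1 in KDAC4 H803A exceeded its KDAC4 H976Y level (3.92 ± 0.52, adjusted p = 0.000619 by edgeR), and JAG1 was lower (-1.27 ± 0.18, adjusted p = 0.000823), as was the syndecan SDC1 (-1.08 ± 0.27, adjusted p = 0.0179).

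Known substrates of ADAMTS proteases gave 13 tested genes of 21. In KDAC4 H803A against KDAC4 H976Y 2 were higher (FBN2, CCBE1; 9.21% of all genes) and 6 lower (VCAN, LTBP1, FN1, COL1A2, FBN1, BGN; 5.85%), and KDAC7 H709A against KDAC4 H976Y gave 2 higher and 6 lower of the same names. The median log2 fold changes over the list were -0.40 and -0.12, against 0.09 over all genes in both. TMP195 against KDAC4 H976Y gave 3 higher (NID1, FBN2, CCBE1) and 4 lower (VCAN, LTBP1, FBN1, BGN). COL1A2, a collagen chain whose propeptide ADAMTS2 removes, was the 1 substrate called in TMP195 against KDAC7 H709A and against KDAC4 H803A, higher in both. Other collagen chains of the list did not follow. In these comparisons COL1A1 gave 0.06 (adjusted p = 0.979 by edgeR) and -1.01 (0.658), and COL5A1 gave 0.04 (0.983) and -1.79 (0.348). COL1A1 averaged 4.28 CPM in TMP195, 4.19 CPM in KDAC7 H709A, 8.67 CPM in KDAC4 H803A and 4.10 CPM in KDAC4 H976Y. In KDAC7 H709A against KDAC4 H803A no gene of any of the 5 lists was called.

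COL1A2 had 1.91, 1.28 and 1.74 CPM in TMP195, 0 CPM in all 4 KDAC7 H709A libraries, 0.0633, 0 and 0 CPM in KDAC4 H803A, and 2.53, 3.09, 2.92 and 2.68 CPM in KDAC4 H976Y. It was at least 33.6-fold higher in TMP195 than in KDAC7 H709A (adjusted p = 0.00023 by edgeR), and its ratio to KDAC4 H803A was 57.6 (adjusted p = 0.00157), with 95% counting bounds of 10.04 and 2305. Unlike ADAMTS2, it was detected in KDAC4 H976Y as well as in TMP195. VCAN, the versican that ADAMTS9 and ADAMTS15 cut, had 49.6, 49.5 and 42.1 CPM in TMP195, 2.61, 39.0, 36.6 and 4.99 CPM in KDAC7 H709A, 5.89, 12.7 and 11.8 CPM in KDAC4 H803A, and 322.1, 294.5, 306.2 and 209.5 CPM in KDAC4 H976Y. In KDAC4 H803A it lay below KDAC4 H976Y (log2 fold change -4.81 ± 0.83, adjusted p = 0.00282), a comparison in which ADAMTS9 was called higher. It was also lower in TMP195 than in KDAC4 H976Y (-2.59 ± 0.74, adjusted p = 0.0301), a comparison in which ADAMTS9 was not called. ADAMTS15 ran the same way as VCAN between KDAC4 H803A (0, 0.291 and 0 CPM) and KDAC4 H976Y (0.758 to 1.81 CPM), and was not called there. ADAMTS1, which was not tested, was likewise detected in every KDAC4 H976Y library and in none of KDAC4 H803A. LTBP1, a fibrillin-like binder of latent TGF-beta, was also lower in KDAC4 H803A than in KDAC4 H976Y (-3.24 ± 0.54, adjusted p = 0.00232).

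**Figure D5:**
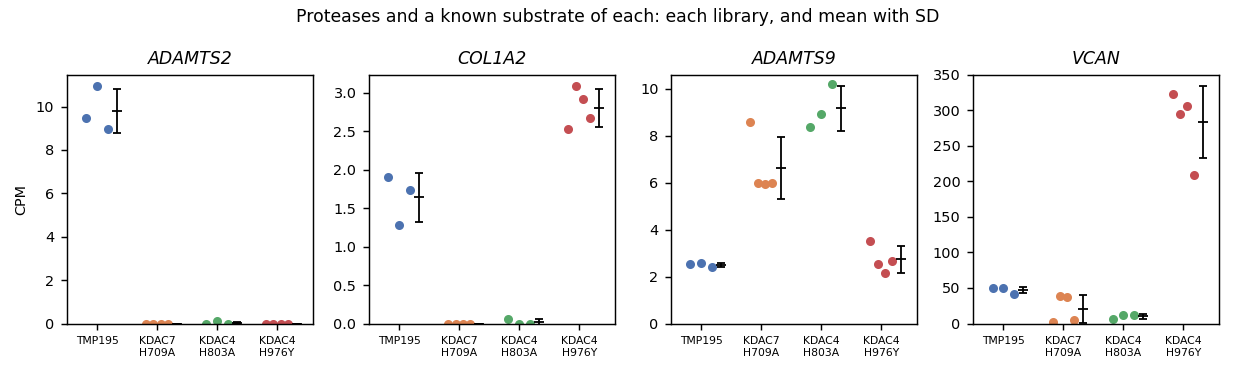
Level in CPM of ADAMTS2 and COL1A2 and of ADAMTS9 and VCAN, 1 point a library in replicate order, with the group mean and SD beside the points and each axis starting at 0. ADAMTS2 is seen in TMP195, COL1A2 in TMP195 and KDAC4 H976Y, and VCAN is highest, at 209.5 to 322.1 CPM, in KDAC4 H976Y, where ADAMTS9 lies at 2.17 to 3.52 CPM. COL1A1 and ADAMTS15, which showed other patterns, are not drawn.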

How the data were processed

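RNA of 15 samples was sequenced, and what the authors deposited is a single table with expected counts for each gene. Per the submitters' processing notes, Trimmomatic 0.39, Bowtie2 2.4.5, RSEM 1.3.3, DESeq2 1.38.2 and GRCh38 were used; the strand setting is not given in the sources used here. In the deposited table the column of KDAC4 H803A replicate 4 held effective lengths. Of 7608 genes with a single transcript over 1000 bases, 96.8% lay within 0.05 bases of the transcript length minus 248.86, so it was used as a length and not as counts.

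Expected counts were rounded. Genes were filtered with filterByExpr (minimum count 10, minimum total 15), scaled by TMM, and tested in edgeR 4.0.16 (R 4.3.3) by the quasi-likelihood F test with all 14 libraries in 1 fit, without covariates, at a Benjamini-Hochberg adjusted p under 0.05 over 17780 genes. The common dispersion was 0.179. CPM used TMM-scaled library sizes, each SE was obtained by dividing a log2 fold change by the root of its F statistic, and a bound took 3 counts over a group at 0. Intervals are exact binomial, at 95%. Each total count limits the precision of low genes, since 1 CPM was 4.86 to 23.9 counts.

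All 41 members matched GENCODE v29 (57055 of 60675 gene IDs did), and promoters came from RefSeq. DESeq2 1.42.0, other scalings and filters, GC and length offsets (lowess trends removed per library), a replicate block and left-out libraries were tried. The tests were checked on simulated data. These had no GC balance, near-identical libraries or excess of mitochondrial ribosomal RNA, so the check says nothing on how such features act on the calls. The members, gene lists, roles and alternatives were chosen with earlier results of these data known. Library values are given for every member called and for ADAM9, ADAM10, ADAM15, ADAM17, ADAM19, ADAMTS1 and ADAMTS4, for ADAM8, which was added after its values were seen, and for up to 3 genes a list with the lowest adjusted p in KDAC4 H803A against KDAC4 H976Y; other genes named beside them were chosen after their values were seen.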

Additional observations from a re-analysis of the deposited data

Results flagged for a closer look

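In 48 groups of 4 libraries of the tested members, 7 had 1 library far from the other 3 by Dixon's test, where chance marks about 1 in 20 groups. The members share the same libraries, so these groups are not independent and the 2 figures cannot be weighed against each other. KDAC7 H709A replicate 1 was the library in 5 of them. ADAM8 had 45.65 CPM there, against 2.47 to 5.03 CPM in replicates 2 to 4. ADAM17 had 32.0 CPM, against 83.7 to 94.1 CPM. ADAMTS9 had 8.59 CPM, against 5.95 to 6.00 CPM, ADAMTS13 had 10.6 CPM, against 0.438 to 0.839 CPM, and ADAMTS16 had 39.5 CPM, against 18.1 to 19.3 CPM. In KDAC4 H976Y replicate 4, ADAM32 had 19.6 CPM, against 6.28 to 8.30 CPM in the other replicates, and ADAMTS6 had 97.0 CPM, against 83.3 to 85.4 CPM. KDAC7 H709A replicate 1 had a GC balance of 1.10, against -1.03 to -0.46 in its group. The part of this balance in the marked values was not tested.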

How the results depend on the processing

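For 28 single-gene calls, 746 values under alternatives were computed. Of these, 623 kept the direction and the call, 122 kept the direction without the call, and 1 turned round. That was ADAMTS18 in TMP195 against KDAC4 H803A with all 15 columns read as counts, at -0.33 (adjusted p = 0.876, the highest of its alternatives); there the length column enters KDAC4 H803A as a library. DESeq2, its size factors, upper-quartile scaling and, among the calls they could give, a filter at a mean of 1 CPM and removal of mitochondrial and small nucleolar RNA genes lost 0 of the calls.

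Counts of members called moved by over 1.5 times under these settings, and the share of all genes called in the same fit stands in brackets. With all 15 columns read as counts they were 0 in TMP195 against KDAC7 H709A (1.54%), 2 in TMP195 against KDAC4 H803A (3.27%), 0 in TMP195 against KDAC4 H976Y (3.74%), 1 in KDAC7 H709A against KDAC4 H976Y (2.3%), and 0 members set apart (1.94%). With only the 2 groups in the fit they were 14 in TMP195 against KDAC4 H976Y (58.8%), 3 in KDAC7 H709A against KDAC4 H976Y (12.8%) and 4 in KDAC4 H803A against KDAC4 H976Y (10.7%). Without a filter on low counts they were 4 in KDAC7 H709A against KDAC4 H976Y (4.68%), with 3 set apart (2.85%). Without the 3 doubted libraries TMP195 gave 13 against KDAC7 H709A (45.7%), 18 against KDAC4 H803A (47.9%) and 15 against KDAC4 H976Y (53.9%). In the same setting KDAC7 H709A gave 14 against KDAC4 H803A (60.2%), which itself gave 18 against KDAC4 H976Y (64.5%), with 17 set apart (50.5%). With GC and length offsets besides, an alternative chosen after seeing the data, these 5 counts were 8 (28.8%), 16 (43.4%), 13 (49.3%), 13 (48.2%) and 18 (56.5%), with 19 set apart (43.8%). With all count libraries in the model used for the report, 5 were set apart (7.68%). The cause was not tested.

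Leaving out 1 library gave 4 to 7 calls in TMP195 against KDAC7 H709A (7 without KDAC7 H709A replicate 1, with 15.7% of all genes), 3 to 7 in TMP195 against KDAC4 H803A (7 without KDAC4 H803A replicate 1, with 14.5%), 4 to 6 in TMP195 against KDAC4 H976Y and 0 to 5 in KDAC7 H709A against KDAC4 H803A (5 without KDAC4 H803A replicate 1, with 25.7%). It gave 3 to 8 in KDAC7 H709A against KDAC4 H976Y, with 3 or 4 without any KDAC4 H976Y or TMP195 library or KDAC7 H709A replicate 2 (at least 6.85% of all genes). It gave 2 to 13 in KDAC4 H803A against KDAC4 H976Y, with 13 without KDAC4 H803A replicate 1 (45.3%), 2 without replicate 3 of KDAC4 H803A (6.15%) or of KDAC4 H976Y (7.14%), 3 without KDAC4 H976Y replicate 1 (7.37%) and 4 without its replicate 2 (7.03%). Members set apart numbered 2 to 8, with 8 without KDAC4 H803A replicate 1 (16.4%), 2 without TMP195 replicate 1 or 2 (4.01% and 3.92%), and 3 without TMP195 replicate 3, KDAC7 H709A replicate 2, KDAC4 H803A replicate 2 or 3 or KDAC4 H976Y replicate 1 or 3 (4.06 to 6.41%).

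The replicate numbers did not pair the samples: over 19 same-numbered pairs the correlation of deviations ran from -0.687 to 0.358, with 5 over 0.1. With the replicate block 3 members were called in KDAC7 H709A against KDAC4 H976Y (7.44% of all genes) and 4 in KDAC4 H803A against KDAC4 H976Y (6.92%). With the replicate block and GC and length offsets these were 3 (11.9%) and 5 (12.5%), with 3 set apart (6.59%). Depth limits the members under about 1 CPM, which had few counts a library.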
